A study of Homo sapiens with 12 samples.

Results

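Genes of the hypoxia response and of glycolysis were followed through TGFβ treatment of A549, a human cell line from a lung adenocarcinoma. The set holds 34 genes, found by symbol among the 29035 rows of the count table. They are 4 sensing genes and subunits of hypoxia-inducible factors (HIFs), 19 glycolytic enzymes and 11 other genes known as hypoxia targets. All libraries came from this 1 line, grown in DMEM with serum and seeded a day before treatment. Cells at 0 h, taken here as untreated although the labels name TGFb for all libraries, were collected, and so were cells given 4 ng/mL TGFβ for 0.5 h, 12 h, 24 h, 48 h or 96 h, which pushes these epithelial cells into epithelial-mesenchymal transition. The medium with TGFβ was renewed every other day, and no untreated library of the later times was analysed here, so time in culture and TGFβ cannot be told apart. Every time was covered by 2 CEL-Seq2 plate libraries, in which each of 384 wells received 1 propidium iodide-negative cell by sorting. The labels do not say whether the 2 libraries came from separate cultures. The p-values rest on the spread between the 2 libraries of a time, pooled over all times and drawn toward that of other genes. That spread may be technical alone.

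HIF-1α (HIF1A) and HIF-2α (EPAS1) are transcription factor subunits that are hydroxylated by the oxygen-dependent prolyl hydroxylases EGLN1 and EGLN3, then bound by VHL and degraded. When oxygen is short they persist, pair with ARNT, and bind a short core element in the promoters and enhancers of genes for glycolysis, mitophagy, vessel growth and collagen hydroxylation. EGLN3 is itself a HIF target, and many glycolytic enzymes are made at high levels in tumor cells whatever the oxygen supply. Most of the HIF subunits' regulation is at the protein, which these libraries do not measure.

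Values are unique molecular identifier (UMI) counts, each standing for 1 captured mRNA molecule primed at its poly(A) tail, so levels were not divided by gene length. Counts of 1871 kept cells, 54 to 217 per library, were summed per library and scaled to library size as CPM. In such sums, fewer cells that express a gene and less of its RNA per cell cannot be told apart, and shares of single cells are given further on. The sums ranged from 1264044 to 4500036 UMIs, with the smallest libraries at 96 h, which held 54 and 64 cells. Only 14.1% and 16.7% of wells were kept at 96 h, against 34.1% to 56.5% in the other libraries. Wells with under 1000 detected genes numbered 290 and 311 at 96 h and 93 to 223 elsewhere. The part of this selection of wells in the 96 h values was not tested. The epithelial markers KRT7, KRT8 and KRT18 stood at 2392, 1134 and 1424 CPM at 0 h, while EPCAM stood at 3.77 CPM. Of the 9 epithelial and A549 markers, 7 were called lower at 96 h against 0 h (11.1% of all genes). KRT7 went the other way. It was called higher after 12 h (log2 1.13, edgeR adjusted p = 2.76e-05) and still after 48 h (0.81, adjusted p = 0.000927). After 96 h KRT7 was 0.41 above 0 h and not called (adjusted p = 0.0770). Of 2 tested fibroblast markers, LUM was called higher after 48 h (4.00, SE 1.14) and 96 h (4.01, SE 1.26), and COL6A3 was not. The TGFβ marker genes SMAD7, PMEPA1 and CDH2 were higher at 12 h, 24 h, 48 h and 96 h, SMAD7 already at 0.5 h (6.3-fold, edgeR adjusted p = 2.68e-05). Of the immune markers with a row in the table, PTPRC and MS4A1 were at 0 UMIs in every library, CD79A had 21 UMIs in all, and CD14 had 124, falling from 7.12 and 9.27 CPM at 0 h to 0.778 and 0 CPM at 96 h.

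Of the 34 genes, 27 had enough counts to be tested among the 10465 protein-coding genes of the main fit. LDHB was tested in a fit of all genes, because the table does not type it as protein-coding. HK2, ALDOA, ALDOC, NDRG1, ANKRD37 and EGLN1 stayed under 3 CPM in every library and were not tested. Counts of a few enzymes were low for genes of their kind. At 0 h, ALDOA, GAPDH, LDHA and PGAM1 had means of 0.282, 109, 78.9 and 45.4 CPM, against 744 CPM for TPI1. ALDOA shared 42.8% of its exonic bases on the same strand with another annotated gene, and EGLN1 shared 55.8%. LDHB shared 33.4%. Rows for GAPDH pseudogenes held 5.55% of the UMIs of GAPDH and its copies, and the annotation release behind the counts is not named in the sources used here. The levels of these genes are therefore uncertain, and with them the summed level of the enzymes.

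The 5 upstream regions printed here belong to members that this report turns on. P4HA1, PGK1 and DDIT4 reached their highest levels at 96 h, while ADM and EGLN3 fell after TGFβ. Each is the 250 bases before the RefSeq transcription start (GRCh38.p14), written 5′ to 3′ along the gene, with the core of the hypoxia response element in capitals wherever ACGTG or GCGTG stands on either strand (CACGT or CACGC when read on the opposite strand). The P4HA1 window is chr10:73096867-73097116, minus strand. The PGK1 window is chrX:78103998-78104247, plus strand. The DDIT4 window is chr10:72273674-72273923, plus strand. The ADM window is chr11:10304823-10305072, plus strand. The EGLN3 window is chr14:33951075-33951324, minus strand.
P4HA1: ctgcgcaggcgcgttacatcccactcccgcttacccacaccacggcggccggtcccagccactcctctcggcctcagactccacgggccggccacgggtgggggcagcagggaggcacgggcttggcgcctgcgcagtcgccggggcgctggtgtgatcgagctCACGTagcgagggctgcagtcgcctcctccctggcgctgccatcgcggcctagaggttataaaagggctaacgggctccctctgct
PGK1: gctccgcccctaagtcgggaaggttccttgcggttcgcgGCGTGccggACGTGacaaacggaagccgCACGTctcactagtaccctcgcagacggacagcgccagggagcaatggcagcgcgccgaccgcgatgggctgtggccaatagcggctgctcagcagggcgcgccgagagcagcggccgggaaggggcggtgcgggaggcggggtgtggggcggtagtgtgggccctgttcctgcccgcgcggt
DDIT4: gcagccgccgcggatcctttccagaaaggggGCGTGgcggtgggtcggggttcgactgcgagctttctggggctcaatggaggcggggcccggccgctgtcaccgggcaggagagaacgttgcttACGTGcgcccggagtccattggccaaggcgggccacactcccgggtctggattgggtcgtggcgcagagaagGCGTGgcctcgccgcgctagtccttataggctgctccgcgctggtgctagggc
ADM: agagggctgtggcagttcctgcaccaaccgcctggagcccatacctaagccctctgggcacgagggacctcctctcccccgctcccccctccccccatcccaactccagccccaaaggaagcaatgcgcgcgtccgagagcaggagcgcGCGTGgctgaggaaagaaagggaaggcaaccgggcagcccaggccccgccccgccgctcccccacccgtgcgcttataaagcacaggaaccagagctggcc
EGLN3: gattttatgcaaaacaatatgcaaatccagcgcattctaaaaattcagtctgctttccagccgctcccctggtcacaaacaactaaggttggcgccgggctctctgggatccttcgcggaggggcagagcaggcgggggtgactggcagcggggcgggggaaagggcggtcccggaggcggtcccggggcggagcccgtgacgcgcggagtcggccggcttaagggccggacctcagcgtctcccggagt
The PGK1 window held 3 matches that begin at -211, -202 and -183 relative to the start, the DDIT4 window held 3, and the windows of P4HA1 and ADM held 1 each. None was found in the EGLN3 window, which says only that these letters are not in these bases. Of the 32 members with a window in the RefSeq table, 22 (68.8%) held at least 1 match, against 43.2% of all 35116 promoters of that table. By group, matches stood in 12 of 19 enzymes (63.2%) and in 7 of 9 other hypoxia targets with a window (77.8%). The longer-known ACGTG form was present in 14 of the 32, and in 18.5% of all promoters. A match is a description of the sequence, and no binding was measured.

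The counts of changed members were set against the share of all tested genes that changed the same way. Genes were called by edgeR's quasi-likelihood F test with p adjusted over all tested genes by Benjamini-Hochberg and a threshold of 0.05. At 0.5 h against 0 h, where 0.392% of all genes were higher and 0.0478% lower, 0 of 27 members were called by edgeR or by DESeq2, and 3 had an unadjusted p under 0.05. With no filter on low counts, DDIT4 (adjusted p = 0.0128) and ADM (adjusted p = 0.00571) were called higher there. At 12 h, 2 members were higher (8.46% of all genes) and 4 lower (5.83%). At 24 h, 0 were higher (7.62% of all genes) and 4 lower (5.56%). At 48 h, 2 were higher (10.0%) and 7 lower (8.48%), and at 96 h, 5 were higher (12.5%) and 3 lower (11.1%). For the 0 higher at 24 h, 2 members had an unadjusted p under 0.05 in that direction and DESeq2 called 0. As shares of 27, the members higher were near the background at 12 h and 48 h and below it at 24 h. The members lower were above the background at 12 h, 24 h and 48 h.

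Between neighboring times, the members stood furthest from the background in the last step. From 12 h to 24 h edgeR, fitted without a term for the replicate number, called no gene in either direction (0.00% higher and 0.00% lower), 2 members were among 572 genes with an unadjusted p under 0.05, and DESeq2 called 0 members (1 gene of the table higher and 1 lower). With no filter on low counts, HIF1A (-0.71, adjusted p = 0.0103) and EPAS1 (-0.67, adjusted p = 0.0199) were called lower in that step. From 24 h to 48 h, 2 members were higher (2.61% of all genes) and 2 lower (2.63%). From 48 h to 96 h, 7 of 27 members were higher against 0.803% of all genes, and 0 were lower against 0.411%. No member had an unadjusted p under 0.05 in the downward direction in that step by edgeR, and DESeq2 called 7 higher and 0 lower. The median log2 change of the 27 from 48 h to 96 h was 0.60, and that of all tested genes was -0.01. Leaving out any 1 library of the last step gave fewer members called higher, each fit resting on a single library in that arm. Fewer of all genes were called higher in these fits as well.

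**Figure D1:**
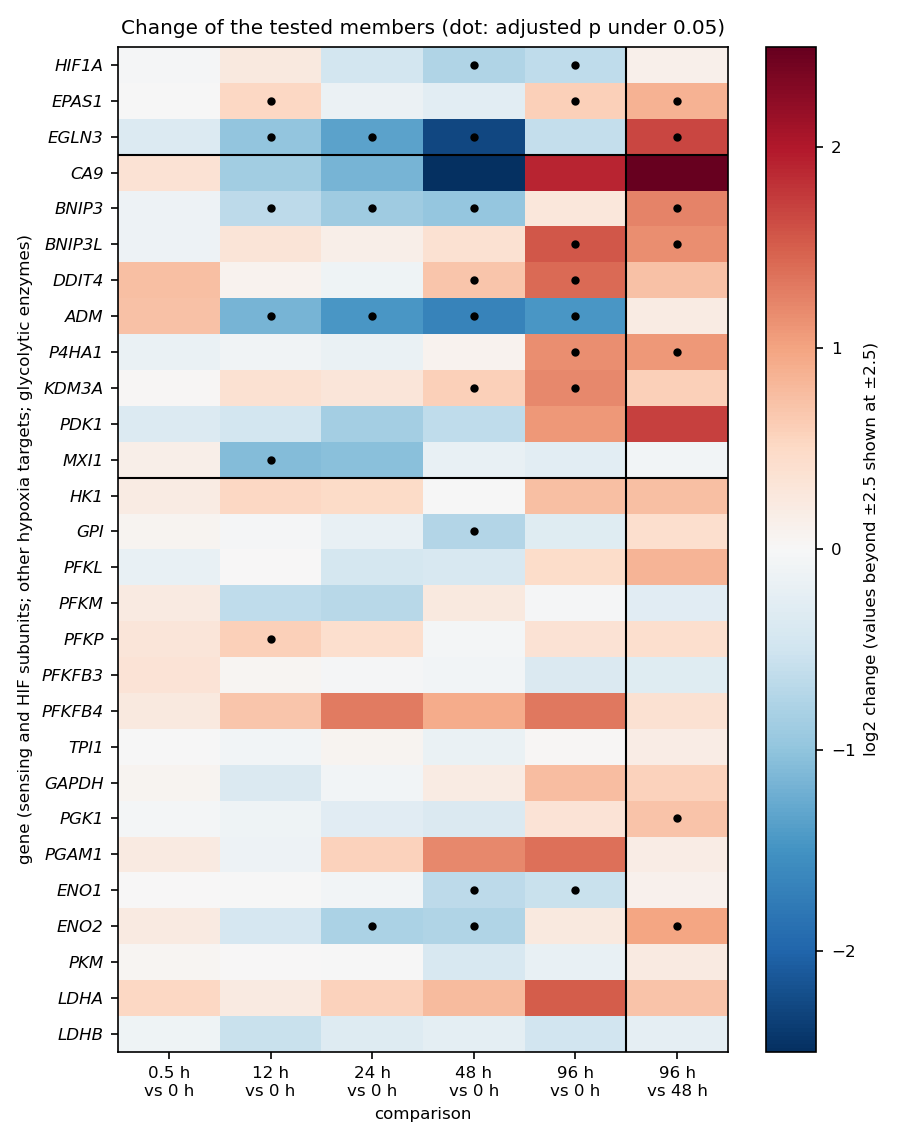
Log2 change of the 28 tested members (rows, by role, with LDHB from the fit of all genes) at each time against 0 h and at 96 h against 48 h (columns). Red is higher and blue lower at the later time, and a dot marks an adjusted p under 0.05 by edgeR. The right-hand column is red in most rows, and its 7 dots stand in red cells.

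The sensing genes and HIF subunits moved in different directions. EGLN3 (chr14:33924227-34462774) had a lower mean at each time up to 48 h and a higher one at 96 h. Its levels in replicates 1 and 2 were 27.4 and 23.7 CPM at 0 h, 21.3 and 19.3 after 0.5 h, 14.0 and 11.8 after 12 h, 9.40 and 11.1 after 24 h, 5.68 and 4.64 after 48 h and then 18.7 and 15.3 after 96 h. Both libraries of every treated time lay below both at 0 h, and those of 96 h lay between the 12 h and the 0.5 h libraries. The log2 change from 0 h was -0.98 at 12 h (SE 0.23, edgeR adjusted p = 0.00414), -1.33 at 24 h (SE 0.24, adjusted p = 0.000317) and -2.28 at 48 h (SE 0.29, adjusted p = 2.01e-06). From 48 h to 96 h it rose by 1.68 (SE 0.34, adjusted p = 0.0112), a 3.2-fold difference that rests on 26 UMIs at 48 h and 47 at 96 h. At 96 h against 0 h the change was -0.60 (SE 0.26, adjusted p = 0.108), and it was called without upper limits on cells (-0.80, adjusted p = 0.0180) and in thinned sums (-0.93, adjusted p = 0.0443). The 12 h call was lost without 0 h replicate 1 (-0.88, adjusted p = 0.0592) or 12 h replicate 2 (-0.84, adjusted p = 0.0827). The rise to 96 h was lost without any 1 of its 4 libraries, with changes of 1.53 to 1.85 and adjusted p of 0.0556 and 0.0615 without 48 h replicate 1 and 2, and 0.152 and 0.0637 without 96 h replicate 1 and 2.

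The transcripts of the HIF α subunits were lower or higher at different times. HIF1A (chr14:61695513-61748259) and EPAS1 were described by library after their values were seen. HIF1A stood at 283 and 223 CPM at 0 h, 224 and 273 after 0.5 h, 313 and 289 after 12 h, 187 and 183 after 24 h, 155 and 145 after 48 h and then 160 and 167 after 96 h. The 2 libraries at 12 h were above all others, and those from 24 h on were below all earlier ones. HIF1A fell by 0.75 on the log2 scale at 48 h (SE 0.15, edgeR adjusted p = 0.000907) and by 0.63 at 96 h (SE 0.16, adjusted p = 0.00478). The 96 h call was lost without 0 h replicate 1 (-0.46, adjusted p = 0.0953) or 96 h replicate 1 (-0.61, adjusted p = 0.0517). At 24 h the change of -0.45 had an adjusted p of 0.0500047, just outside the threshold, and was called without 0 h replicate 2 (-0.63, adjusted p = 0.0214), without either 0.5 h library or without 48 h replicate 1.

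EPAS1 (chr2:46293667-46386697) had 2 high points, at 12 h and at 96 h. Its levels were 557 and 422 CPM at 0 h, 480 and 493 after 0.5 h, 745 and 658 after 12 h, 488 and 396 after 24 h, 460 and 354 after 48 h and then 784 and 704 after 96 h. The 4 libraries of 12 h and 96 h lay above the other 8. EPAS1 rose by 0.52 at 12 h (SE 0.17, edgeR adjusted p = 0.0364), by 0.60 at 96 h (SE 0.17, adjusted p = 0.0103) and by 0.87 from 48 h to 96 h (SE 0.17, adjusted p = 0.00821). The 12 h call was lost without 0 h replicate 2 (0.33, adjusted p = 0.357) or 12 h replicate 1 (0.43, adjusted p = 0.245), and the 96 h call without 0 h replicate 2 (0.39, adjusted p = 0.185) or 96 h replicate 1 (0.52, adjusted p = 0.118), or with no upper limits on cells (0.43, adjusted p = 0.0676). The rise from 48 h was lost without 48 h replicate 2 (0.68, adjusted p = 0.142), 96 h replicate 1 (0.79, adjusted p = 0.152) or 96 h replicate 2 (0.94, adjusted p = 0.0637). EGLN1, the main hydroxylase of HIF-1α in many cells, was listed at 0.255 to 2.66 CPM and gave no test.

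**Figure D2:**
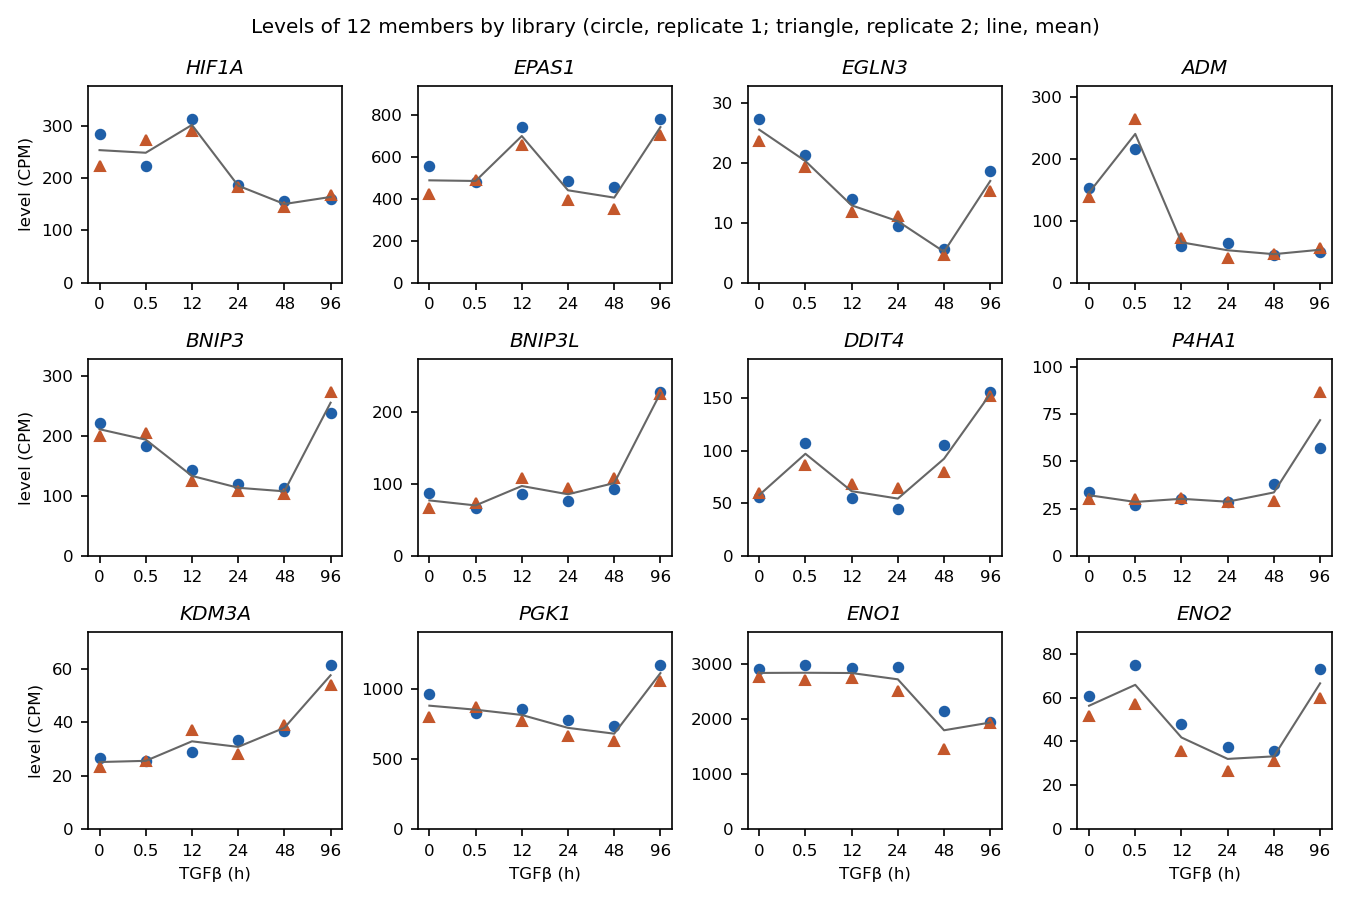
Levels of 12 members in CPM (vertical axis, from 0) at each time of TGFβ in hours (horizontal axis, not to scale), with a circle for replicate 1, a triangle for replicate 2 and a line through the means of 2 libraries. BNIP3 and EGLN3 are lowest at 48 h and higher at 96 h, ADM stays low after 12 h, and ENO1 is lower at 48 h and 96 h than before.

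Among the other hypoxia targets, several genes were highest at 96 h, and ADM ran the opposite course. BNIP3L and BNIP3 encode mitochondrial outer membrane proteins that serve as receptors for mitophagy. BNIP3L (chr8:26383054-26505636) stood at 87.6 and 66.6 CPM at 0 h, 66.4 and 73.9 after 0.5 h, 86.1 and 108 after 12 h, 76.8 and 94.5 after 24 h, 93.6 and 109 after 48 h and then 228 and 225 after 96 h. Both 96 h libraries were more than double any other library. BNIP3L rose 2.93-fold from 0 h to 96 h (log2 1.55, SE 0.18, edgeR adjusted p = 2.99e-07) and 2.24-fold from 48 h to 96 h (log2 1.17, SE 0.18, adjusted p = 0.000803). Both calls held in each of 20 alternatives.

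BNIP3 (chr10:131967684-131981967), described by library after its values were seen, dipped before it returned. Its levels were 222 and 200 CPM at 0 h, 183 and 204 after 0.5 h, 142 and 124 after 12 h, 119 and 108 after 24 h, 112 and 103 after 48 h and then 237 and 273 after 96 h. The 6 libraries from 12 h to 48 h lay below all others, and the 96 h libraries above all others. The log2 change from 0 h was -0.66 at 12 h (SE 0.15, edgeR adjusted p = 0.00262), -0.89 at 24 h (adjusted p = 0.000118) and -0.97 at 48 h (adjusted p = 3.88e-05). From 48 h to 96 h BNIP3 rose 2.37-fold (log2 1.24, SE 0.16, adjusted p = 0.000103), and at 96 h it was 0.28 above 0 h (SE 0.15, adjusted p = 0.200). The calls at 24 h, at 48 h and between 48 h and 96 h held in each of 20 alternatives, and the 12 h call was lost without 12 h replicate 2 (-0.54, adjusted p = 0.0798). Rows for BNIP3 pseudogenes held 5.27% of the UMIs of the gene and its copies.

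DDIT4, an inhibitor of mTORC1 signaling that is induced by stress and by hypoxia, lies at chr10:72273919-72276036. Its levels were 55.9 and 59.6 CPM at 0 h, 107 and 86.6 after 0.5 h, 55 and 67.8 after 12 h, 44.3 and 64.5 after 24 h, 105 and 79.4 after 48 h and then 156 and 152 after 96 h. The 0.5 h, 48 h and 96 h libraries lay above all of those at 0 h, 12 h and 24 h. DDIT4 rose by 0.69 at 48 h (SE 0.19, edgeR adjusted p = 0.0135) and by 1.41 at 96 h (SE 0.20, adjusted p = 6.07e-06), while the change of 0.75 at 0.5 h had an adjusted p of 0.116. From 24 h to 48 h it rose by 0.79 (SE 0.20, adjusted p = 0.0169), and from 48 h to 96 h the change was 0.73 (SE 0.19, adjusted p = 0.0695). The 48 h call was lost without 0 h replicate 1 (0.63, adjusted p = 0.110), 0 h replicate 2 (0.70, adjusted p = 0.0647) or 48 h replicate 1 (0.45, adjusted p = 0.202). The step from 24 h was lost without 24 h replicate 1 (0.52, adjusted p = 0.310) or 48 h replicate 1 (0.56, adjusted p = 0.183), and the last step was called without either 24 h library (0.72, adjusted p = 0.0379 and 0.0440).

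P4HA1, the catalytic α subunit of the prolyl 4-hydroxylase that modifies collagen, lies at chr10:73007217-73096974 and was flat until 96 h. It stood at 34 and 30.1 CPM at 0 h, 26.7 and 30.2 after 0.5 h, 29.8 and 30.5 after 12 h, 28.7 and 28.5 after 24 h, 38.1 and 28.9 after 48 h and then 56.8 and 86.5 after 96 h. The 10 earlier libraries stood between 26.7 and 38.1 CPM, below both at 96 h. P4HA1 rose 2.25-fold from 0 h to 96 h (log2 1.17, SE 0.21, edgeR adjusted p = 0.000203) and 2.12-fold from 48 h (log2 1.09, SE 0.22, adjusted p = 0.0106). The second call was lost without 48 h replicate 2 (0.91, adjusted p = 0.0965) or 96 h replicate 2 (0.74, adjusted p = 0.377).

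KDM3A, a demethylase of histone H3 lysine 9, lies at chr2:86440647-86492716. Its levels were 26.8 and 23.5 CPM at 0 h, 25.5 and 25.7 after 0.5 h, 28.8 and 37.0 after 12 h, 33.5 and 28.2 after 24 h, 36.8 and 39.2 after 48 h and then 61.5 and 53.9 after 96 h. Both 96 h libraries lay above the other 10. KDM3A rose by 1.19 at 96 h (SE 0.21, edgeR adjusted p = 0.00013). Its call at 48 h (0.59, SE 0.21, adjusted p = 0.0466) was weak, since 19 of 20 alternatives lost it, each of the 12 left-out libraries included (0.46 to 0.68, adjusted p = 0.0532 to 0.238), and cells under stricter limits gave -0.0166. Under these limits, which kept 206 cells, the 96 h calls of DDIT4 (0.98, adjusted p = 0.0644), P4HA1 (1.24, adjusted p = 0.145) and KDM3A (0.49, adjusted p = 0.588) were lost.

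ADM, which encodes the secreted vasodilator peptide adrenomedullin, lies at chr11:10305073-10307397 and fell within 12 h. Its levels were 152 and 139 CPM at 0 h, 216 and 265 after 0.5 h, 58.8 and 71.5 after 12 h, 64.2 and 40.4 after 24 h, 45.1 and 46.9 after 48 h and then 49.8 and 56.6 after 96 h. Both 0.5 h libraries lay above those at 0 h, and all 8 from 12 h on lay below them. The log2 change from 0 h was -1.16 at 12 h (SE 0.18, edgeR adjusted p = 5.96e-05), -1.45 at 24 h (adjusted p = 3.75e-06), -1.66 at 48 h (adjusted p = 6.44e-07) and -1.45 at 96 h (adjusted p = 7.85e-06), and these 4 calls held in each of 20 alternatives. At 96 h against 48 h the change was 0.21 (SE 0.22, adjusted p = 0.783). At 0.5 h it was 0.73 (SE 0.18, adjusted p = 0.0796), and it was called without 24 h replicate 1 (adjusted p = 0.0235) or 24 h replicate 2 (adjusted p = 0.0231).

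The remaining targets were scarcer. MXI1, an antagonist of MYC, stood at 17.5 and 8.11 CPM at 0 h, 12.6 and 15.7 after 0.5 h, 5.09 and 7.09 after 12 h, 6.19 and 6.3 after 24 h, 14.0 and 7.74 after 48 h and then 10.9 and 10.7 after 96 h. The 2 libraries at 0 h were further apart than the 12 h and 24 h libraries were from the lower of them. MXI1 was lower at 12 h (-1.08, SE 0.36, edgeR adjusted p = 0.0432), a call lost without 0 h replicate 1 (-0.41, adjusted p = 0.640), 12 h replicate 1 (-0.86, adjusted p = 0.289), 12 h replicate 2 (-1.30, adjusted p = 0.0840), either 0.5 h library (adjusted p = 0.0536 and 0.0554) or either 96 h library (adjusted p = 0.0653 and 0.0655). It was lost as well with DESeq2 (adjusted p = 0.168), with all genes in the sums (adjusted p = 0.0577) and in thinned sums (adjusted p = 0.0857), so that 10 of 19 alternatives lost it. At 24 h its change of -1.04 had an adjusted p of 0.0590, and it was called without 0 h replicate 2 (-1.5, adjusted p = 0.00934), 48 h replicate 1 or 48 h replicate 2. PDK1, which inhibits pyruvate dehydrogenase, ranged from 2.52 to 7.67 CPM up to 48 h and stood at 11.7 and 14.0 CPM at 96 h, above all earlier libraries, with an adjusted p of 0.0652 against 0 h and 0.0811 against 48 h. CA9, a carbonic anhydrase at the cell surface, was at 0 in replicate 1 of 12 h, 24 h and 48 h and reached 8.56 and 4.66 CPM at 96 h, with an adjusted p of 0.147 against 0 h. NDRG1 and ANKRD37 stayed under 1.2 CPM in every library.

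The glycolytic enzymes changed in small numbers. Against 0 h, 1 of the 15 tested among protein-coding genes was higher at 12 h (8.46% of all genes), and 1 was lower at 24 h (5.56%), 3 at 48 h (8.48%) and 1 at 96 h (11.1%). The single calls are about what the background shares give for 15 genes. Their median log2 change was -0.02 at 24 h, -0.07 at 48 h and 0.34 at 96 h, with all genes at -0.01, 0.03 and 0.02. DESeq2 also called LDHA higher at 96 h.

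PKM, ENO1 and PGK1 were the enzymes whose mean reached 1000 CPM at any time. ENO1, the main enolase of most tissues (chr1:8861000-8879190), stood at 2903 and 2762 CPM at 0 h, 2972 and 2699 after 0.5 h, 2929 and 2732 after 12 h, 2932 and 2501 after 24 h, 2133 and 1451 after 48 h and then 1945 and 1921 after 96 h. The 4 libraries at 48 h and 96 h lay below the other 8. ENO1 fell by 0.66 at 48 h (SE 0.17, edgeR adjusted p = 0.00631), by 0.60 from 24 h to 48 h (SE 0.17, adjusted p = 0.0356) and by 0.55 at 96 h against 0 h (SE 0.17, adjusted p = 0.0186). Without 48 h replicate 2, the lowest library, the change at 48 h was -0.41 (adjusted p = 0.179) and that from 24 h was -0.37 (adjusted p = 0.428). The step from 24 h was also lost without 24 h replicate 1 (-0.48, adjusted p = 0.272) or either 96 h library (-0.62, adjusted p = 0.0562 and 0.0550), and the 96 h call without 0 h replicate 1 (-0.53, adjusted p = 0.0892), 96 h replicate 1 (-0.57, adjusted p = 0.105) or 96 h replicate 2 (-0.56, adjusted p = 0.121).

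PGK1, phosphoglycerate kinase (chrX:77910739-78129295), stood at 960 and 800 CPM at 0 h, 829 and 873 after 0.5 h, 858 and 770 after 12 h, 781 and 662 after 24 h, 732 and 629 after 48 h and then 1168 and 1056 after 96 h. The 96 h libraries were the highest and the 48 h libraries were below both at 0 h. From 48 h to 96 h PGK1 rose 1.63-fold (log2 0.71, SE 0.15, edgeR adjusted p = 0.0179), a call lost without 48 h replicate 2 (0.59, adjusted p = 0.195), 96 h replicate 1 (0.63, adjusted p = 0.239) or 96 h replicate 2 (0.77, adjusted p = 0.115). At 96 h against 0 h the change was 0.34 (SE 0.15, adjusted p = 0.119).

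PKM, the pyruvate kinase of most dividing cells (chr15:72199029-72231819), stood at 4367 and 3671 CPM at 0 h, 4538 and 3791 after 0.5 h, 4525 and 3590 after 12 h, 4495 and 3460 after 24 h, 3514 and 2565 after 48 h and then 3798 and 3318 after 96 h. Replicate 1 was higher than replicate 2 at all 6 times, and these numbers are also 2 barcode sets. No comparison of PKM passed, with -0.40 at 48 h (SE 0.18, edgeR adjusted p = 0.136), called without 48 h replicate 1 (-0.65, adjusted p = 0.0396), and -0.18 at 96 h (SE 0.18, adjusted p = 0.542).

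Of the other enzymes, ENO2, the neuronal enolase, was lowest at 24 h and 48 h. It and the enzymes that follow are described with values chosen after these were seen. ENO2 ranged from 51.8 to 74.8 CPM at 0 h and 0.5 h, stood at 26.7 to 37.4 CPM at 24 h and 48 h, and was at 73.1 and 59.9 CPM at 96 h. ENO2 fell by 0.79 at 24 h (SE 0.21, edgeR adjusted p = 0.0112) and by 0.75 at 48 h (SE 0.22, adjusted p = 0.0159), then rose by 0.99 to 96 h (SE 0.23, adjusted p = 0.0285). The 24 h call was lost without 0 h replicate 1 (-0.67, adjusted p = 0.131) or 24 h replicate 2 (-0.56, adjusted p = 0.188), and the 48 h call without 0 h replicate 1 (-0.64, adjusted p = 0.134) or 48 h replicate 2 (-0.67, adjusted p = 0.105). The rise was lost without 48 h replicate 1 (1.09, adjusted p = 0.0817), 48 h replicate 2 (0.89, adjusted p = 0.161), 96 h replicate 1 (0.84, adjusted p = 0.311) or 96 h replicate 2 (1.12, adjusted p = 0.121).

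GPI, glucose-6-phosphate isomerase, ranged from 589 to 730 CPM up to 24 h, stood at 436 and 377 CPM at 48 h and at 542 and 553 CPM at 96 h. It fell by 0.74 at 48 h against 0 h (SE 0.14, edgeR adjusted p = 0.000414) and by 0.56 from 24 h (SE 0.14, adjusted p = 0.0198). The second call was lost without 24 h replicate 1 (-0.54, adjusted p = 0.123) or 48 h replicate 2 (-0.48, adjusted p = 0.192). The phosphofructokinase isoforms differed among themselves. PFKP rose by 0.59 at 12 h (SE 0.15, adjusted p = 0.0079), from 309 and 311 CPM to 479 and 454 CPM, and was lost without 0 h replicate 1 (adjusted p = 0.0608), 0 h replicate 2 (adjusted p = 0.0565) or 12 h replicate 1 (adjusted p = 0.0699). PFKM stood at 11.7 and 9.63 CPM at 24 h and at 19.1 and 23.2 CPM at 48 h, a rise of 0.95 (SE 0.26, adjusted p = 0.0296) that was lost without 24 h replicate 1 (1.11, adjusted p = 0.106), 24 h replicate 2 (0.80, adjusted p = 0.185), 48 h replicate 1 (1.09, adjusted p = 0.0511) or 48 h replicate 2 (0.79, adjusted p = 0.216). PFKL ranged from 14.1 to 32.7 CPM and passed in no comparison, although without upper limits on cells it was called from 48 h to 96 h (0.95, adjusted p = 0.0324).

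LDHA, the lactate dehydrogenase subunit induced by HIF, stood at 69.5 and 88.3 CPM at 0 h and at 156 and 292 CPM at 96 h, and both 96 h libraries were above both at 0 h. Its log2 change of 1.51 (SE 0.46) had an edgeR adjusted p of 0.0532 and a DESeq2 adjusted p of 0.0135. It was called without 96 h replicate 1 (1.88, adjusted p = 0.0159), without either 48 h library (1.5, adjusted p = 0.00930 and 0.00825) and without either 0.5 h library (1.49, adjusted p = 0.0393 and 0.0390). LDHA, GAPDH and PGAM1 were each higher in replicate 2 than in replicate 1 at 0 h, 12 h, 24 h, 48 h and 96 h and lower at 0.5 h, and the part of the barcode set in this was not tested. GAPDH ranged from 74.9 to 239 CPM and PGAM1 from 30.1 to 170 CPM. HK1 ranged from 23.3 to 51.9 CPM apart from 11.9 CPM in 48 h replicate 2, and without 48 h replicate 1 it was called at 48 h against 0 h (-1.19, adjusted p = 0.0146), against 24 h and against 96 h. Without either 48 h library, HK1 was also called at 96 h against 0 h (0.74, adjusted p = 0.0144 and 0.0146, against 0.75 and 0.130 with all libraries). TPI1 ranged from 596 to 891 CPM, PFKFB3 from 218 to 380 CPM, LDHB from 506 to 884 CPM and PFKFB4 from 0.901 to 4.08 CPM, and these passed in no comparison.

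The other hypoxia targets and the enzymes were then set side by side, as a description. Of the 9 targets tested, 3 were lower at 12 h (5.83% of all genes) and 2 at 24 h (5.56%). At 48 h, 2 were higher (10.0%) and 2 lower (8.48%), and at 96 h, 4 were higher (12.5%) and 1 lower (11.1%). At 0.5 h the median log2 change was 0.21 for the enzymes and 0.02 for the targets. The median of the targets was -0.45 after 12 h, -0.85 after 24 h, -0.19 after 48 h and 1.17 after 96 h, and from 48 h to 96 h it was 1.09, with 3 higher, against 0.42 for the enzymes, with 2 higher (0.803% of all genes). The summed level of the 19 enzymes was 10911 ± 503 CPM at 0 h, 8310 ± 939 CPM at 48 h and 9805 ± 83.5 CPM at 96 h (SD, n = 2). The 11 targets summed to 569 ± 49.9 CPM at 0 h, 377 ± 1.44 CPM at 24 h, 434 ± 21.4 CPM at 48 h and 849 ± 39.6 CPM at 96 h (SD, n = 2). Enzyme sums in the 2 libraries at 96 h (9864 and 9746 CPM) lay below those at 0 h (11266 and 10556 CPM), and target sums at 96 h (821 and 877 CPM) lay above those at 0 h (605 and 534 CPM). PKM and ENO1 made up most of the enzyme sum as counted, with means of 4019 and 2832 CPM at 0 h and 3558 and 1933 CPM at 96 h. The levels of ALDOA, GAPDH, LDHA, LDHB and PGAM1 in this sum are uncertain. Of the 15 tested enzymes, 10 had a log2 change above 0 at 96 h against 0 h, so the sum does not stand for most enzymes.

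The difference between the mean log2(CPM + 1) of the enzymes and that of the targets, with every gene given equal weight, was 2.17 ± 0.19 at 0 h, 2.45 ± 0.17 at 24 h and 1.82 ± 0.13 at 96 h (SD, n = 2). The change from 0 h was -0.15 after 0.5 h, 0.19 after 12 h, 0.29 after 24 h, 0.10 after 48 h and -0.35 after 96 h, where the pooled SD between libraries of 1 time was 0.18. The 2 libraries at 96 h (1.73 and 1.92) lay below all 10 others except the second at 0.5 h (1.82), which lay between them. On this scale the change at 96 h shrank to -0.10 with stricter limits on cells and to -0.11 in sums thinned to the smallest library. No test was made of this difference.

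**Figure D3:**
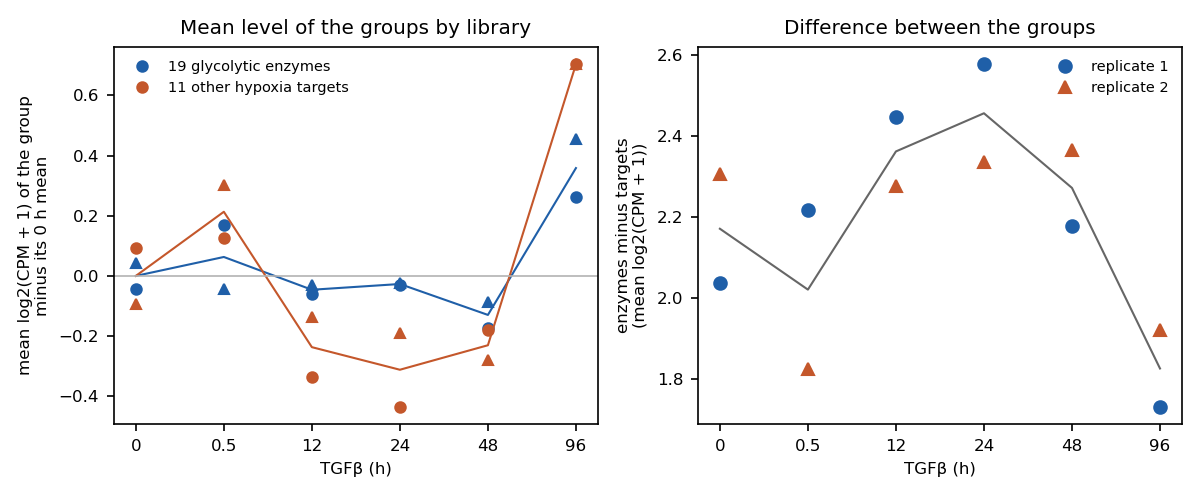
Left, the mean log2(CPM + 1) of the 19 glycolytic enzymes (blue) and the 11 other hypoxia targets (orange) in each library, minus the mean of the 2 libraries at 0 h. Right, enzymes minus targets per library on the same scale, with the axis not starting at 0; circles are replicate 1, triangles replicate 2 and lines join means at the 6 times. The targets' mean is 0.70 above 0 h at 96 h and the enzymes' mean is 0.36 above.

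Single cells were compared after thinning each to the same number of UMIs, a depth that 1684 of the 1871 cells reached and 187 did not. The share of cells with at least 1 UMI is given for members seen in part of the cells, since ENO1 and PKM were seen in 100% of cells in every library. ADM was seen in 66.3% and 65.6% of cells at 0 h, 86.7% and 85.6% after 0.5 h, 25.6% and 31% after 48 h, and 35.3% and 36.5% after 96 h. BNIP3L was seen in 58.9% and 68% at 48 h and in 84.3% and 85.7% at 96 h, and P4HA1 in 30.2% and 32%, then 39.2% and 57.1%. Without thinning, the mean share was 78.5% at 0 h and 43.3% at 96 h for ADM, 80.6% at 48 h and 95.8% at 96 h for BNIP3L, and 43.3% and 69.8% for P4HA1. In the 2187 wells with under 1000 detected genes (median 975 UMIs, against 21419 in kept cells) these shares were 9.15%, 13.5% and 5.44%. EGLN3 was seen in 23.4% and 19.1% of thinned cells at 0 h, 4.65% and 6% after 48 h, and 9.80% and 11.1% after 96 h, with 0.777% in the low wells. Its unthinned means were 36.0%, 8.03% and 19.7%.

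Summed over genes, a thinned cell held a median of 119 and 121 enzyme UMIs at 0 h, 96.0 and 83.5 at 48 h and then 108 and 107 at 96 h. The targets gave medians of 7 and 6 UMIs at 0 h, 4 and 4 at 24 h and 48 h, and 9 and 9 at 96 h. In UMIs, the spread of targets was widest at 96 h, where the medians were also highest. The 10th and 90th percentiles were 5 and 15 UMIs in replicate 1 and 3.2 and 17.6 in replicate 2, against 2 and 9, and 2 and 7, at 48 h. The spread relative to the median was not compared.

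At 96 h, cells with more target UMIs also held more enzyme UMIs. Spearman's rho between the sums over cells of 1 library was 0.399 in replicate 1 (51 cells) and 0.665 in replicate 2 (63 cells), and lay between -0.0636 and 0.168 in the other 10 libraries (100 to 192 cells each). These are descriptions across cells that share a library, with no test. The target sums were also larger at 96 h, and the part of that in the higher rho was not tested. Leaving out GAPDH, LDHA, PGAM1 and LDHB gave 0.361 and 0.696 at 96 h, against -0.046 to 0.176 elsewhere. Leaving out PGK1 gave 0.318 and 0.596, and leaving out BNIP3 gave 0.307 and 0.574. PKM and ENO1, which hold most of the enzyme UMIs of a cell, were not left out, so their part in the rho was not tested. The rho of target sums with the cells' depth before thinning was -0.323 and -0.170 at 96 h and with the mitochondrial share 0.0931 and -0.120, and that of enzyme sums was -0.155 and -0.0713, and -0.151 and -0.141.

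Member by member, the rho of each gene with the summed UMIs of the other 33 was above the highest of the other 10 libraries in both 96 h libraries for 9 of the 30 members that vary in both. The same count was not made over all genes, and the 96 h libraries held fewer cells than the others. The 9 of 30 therefore has no background beside it and is a description only. The 9 were the enzymes GPI, PFKP, PKM and LDHA, the targets NDRG1, BNIP3, DDIT4 and ADM, and EGLN3. ADM had 0.346 and 0.525 at 96 h and -0.095 to 0.088 elsewhere, although its summed level stayed low. BNIP3 had 0.292 and 0.435 (elsewhere -0.047 to 0.175), DDIT4 0.326 and 0.413 (elsewhere -0.004 to 0.158), and PKM 0.460 and 0.495 (elsewhere 0.037 to 0.407). PGK1 reached 0.265 and 0.535, with 0.363 the highest elsewhere. NDRG1 was seen in under 2% of cells at 96 h, so its 0.130 and 0.112 rest on single cells.

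**Figure D4:**
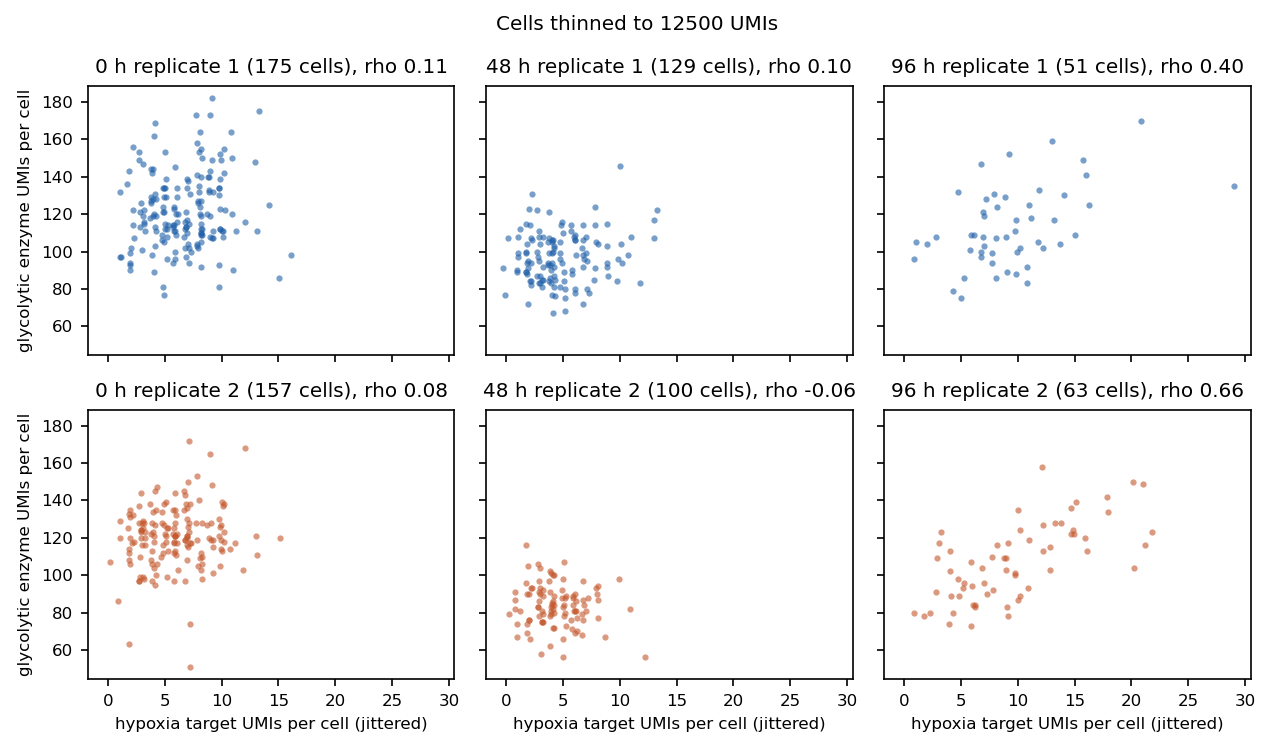
Glycolytic enzyme UMIs (vertical axis) against hypoxia target UMIs (horizontal axis, with jitter) in single cells thinned to 1 depth, at 0 h, 48 h and 96 h (columns) and for replicates 1 and 2 (rows). Each point is a cell, and rho is Spearman's. The points form flat clouds at 0 h and 48 h and rise from left to right at 96 h.

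Other genes of the pathway, in lists drawn up with earlier results known, were counted for context. Of 7 tested genes of the HIF machinery, 1 was higher and 1 lower at 12 h against 0 h (8.46% and 5.83% of all genes), near the background for so few genes. ARNT was higher there (log2 1.08) and CITED2, a competitor of HIF for p300, lower (-2.90). At 96 h against 0 h, 0 of the 7 were higher and 0 lower (12.5% and 11.1% of all genes). Of 7 tested glucose and lactate transporters, 3 were higher at 96 h (12.5% of all genes), namely SLC2A1 (1.02, SE 0.18), SLC2A3 (1.03, SE 0.26) and the lactate exporter SLC16A3 (1.17, SE 0.36). Of 31 tested further hypoxia targets, 17 were higher and 2 lower at 96 h (12.5% and 11.1% of all genes), and 7 and 5 at 12 h (8.46% and 5.83%). They include STC1 (4.73), ANGPTL4 (3.51), PLOD2 (1.76) and BHLHE40 (1.76), and HILPDA was lower (-2.28). From 48 h to 96 h, 6 of the 31 were higher, beside 0.803% of all genes. Named here after their values were seen, these were PLOD2 (2.14-fold, SE 0.16 on the log2 scale), LOXL2 (log2 0.70, SE 0.16), STC1 (1.40, SE 0.27), AK4 (1.18, SE 0.23), GYS1 (1.40, SE 0.30) and VLDLR (1.82, SE 0.41).

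Of 21 other tested enzymes around glycolysis, 3 were higher and 5 lower at 96 h against 0 h, beside 12.5% and 11.1% of all genes, so that the number higher was near the background. The muscle enolase ENO3 (1.87, SE 0.23) and PFKFB2 (1.18, SE 0.29) were higher, and HKDC1 (-3.02, SE 0.32), PDK4 (-4.78, SE 0.60) and the pyruvate dehydrogenase genes PDHB (-0.95, SE 0.19) and PDHX (-1.05, SE 0.21) were lower. From 48 h to 96 h, 1 was lower (0.411% of all genes), HKDC1 (-1.92, SE 0.35). ENO3 stood at 11.5 and 17.7 CPM at 0 h and at 49.8 and 56.6 CPM at 96 h, so the 3 enolase genes each took a different course. ENO1 was lower at 96 h than at 0 h, ENO2 was 0.23 from its start (SE 0.22, edgeR adjusted p = 0.481), and ENO3 was higher.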

How the data were processed

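A549 cells at 6 times of TGFβ, 2 libraries each, were measured by CEL-Seq2. The table deposited by the authors holds UMI counts per gene and well (whole numbers, not normalized) for 4608 wells. Per the labels, the authors made it with HISAT2 2.2.1 (reference GRCh38), after trimming by Trim Galore 0.6.7, and with UMI-tools and featureCounts 2.0.1 for counting. Other versions of 2 of these stand in the methods of the study. For the annotation release and the strandedness of counting, the sources used here give nothing, so antisense and overlapping genes cannot be told apart. Well barcode lists were not used.

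Wells with 100 to 40000 UMIs, 2000 to 7000 genes and at most 35% mitochondrial UMIs were kept, limits taken from the study's methods. The 1871 cells kept are fewer than the study reports under these limits, and the reason was not tested. Doublets were not called in wells of 1 sorted cell. Protein-coding counts were added up within each library and tested with edgeR 4.0.16 (R 4.3.3; TMM, filterByExpr, robust quasi-likelihood F test) in 1 model with a mean per time over 12 libraries (6 residual degrees of freedom), in 8 comparisons. Adjusted p-values are Benjamini-Hochberg over the genes tested. CPM used TMM scaling, and SE is the log2 change over the root of its F. The fit was tested on simulated data. For 12 h and 96 h against 0 h, it recovered 11.9% and 7.5% of changes of 1.5-fold and 55.2% of those of 2-fold at both times. Of changes of 4-fold it recovered 87.9% and 83.3%. A gene that was not called may thus have changed by 2-fold or less. Replicate 1 carried 1 barcode set at every time and replicate 2 the other, with 0 barcodes shared, so number and barcode set cannot be told apart. The number was left out of the fit.

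Cells were thinned to 1 common depth with a fixed seed. Promoters came from RefSeq and gene positions from GENCODE 44. The members and lists were chosen with earlier results of these data known. Values in every library are given for members called against 0 h with a log2 change of at least 1 or with a mean of at least 1000 CPM, and up to 6 genes per further list, those with the lowest adjusted p at 96 h against 0 h, are named, except for 1 gene that is not reported here. Other genes were named after their values were seen. Alternatives used RLE scaling, DESeq2 1.42.0, no filter on low counts, other limits on cells, all genes, thinned sums, a replicate block and each library left out.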

Additional observations from a re-analysis of the deposited data

How the results depend on the processing

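The 38 calls of members were recomputed under 20 alternatives. RLE scaling kept 37, DESeq2 35, no filter on low counts 37, no upper limits on cells 36, sums over all genes 36 and thinned sums 32. With stricter limits on cells (206 cells, 20 members tested), 13 of 32 calls with a value were kept and KDM3A at 48 h turned to -0.0166. Members called there were 3 at 12 h, 2 at 24 h, 3 at 48 h, 5 at 96 h, 0 from 24 h to 48 h (edgeR, 7 at an unadjusted p under 0.05) and 4 from 48 h to 96 h, in place of 6, 4, 9, 8, 4 and 7, with fewer cells and fewer genes tested. Without the filter, 2 were called at 0.5 h and 2 from 12 h to 24 h, and thinned sums called 1 at 0.5 h, in place of 0. The change in enzymes minus targets moved by more than the SD between libraries with stricter limits at 0.5 h (0.158), 24 h (1.15) and 96 h (-0.103), and with thinned sums at 96 h (-0.110); the cause was not tested.

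Leaving out 1 library gave 0 to 1 members at 0.5 h (1 without either 24 h library), 3 to 6 at 12 h (3 without 0 h replicate 1, 12 h replicate 1 or 12 h replicate 2), 3 to 6 at 24 h, 6 to 9 at 48 h, 6 to 10 at 96 h, 0 from 12 h to 24 h, 0 to 4 from 24 h to 48 h (0 without 24 h replicate 1, 1 without 48 h replicate 2) and 2 to 8 from 48 h to 96 h. The lone library of an arm is assumed to vary like the other groups. Among all genes too, fewer were called from 48 h to 96 h when a library of that step was left out. Enzymes minus targets at 0.5 h ranged from -0.346 without replicate 1 to 0.0451 without replicate 2. With the replicate block, all 38 calls were kept and 15 gained, giving 2 members at 0.5 h, 7 at 24 h and 2 from 12 h to 24 h (with 11 of all genes higher and 10 lower); other counts were within 1.5 times. Deviations of same-numbered libraries correlated at -0.0926 to 0.275 over 15 pairs of times, with 6 above 0.1, all among 0 h, 12 h, 24 h and 48 h. Libraries of 1 number also share a barcode set, and what lies behind these correlations was not tested. Members under 3 CPM were left out by the filter on low counts.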
